A study of Mus musculus with 6 samples.

Results

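Proteasome genes were examined in mouse bone marrow on 6 single-colour arrays, 3 from wild type and 3 from diabetic animals. The members were all genes of the platform annotation whose symbol starts with Psma, Psmb, Psmc, Psmd, Psme, Psmf or Psmg followed by a digit. Each was read by a probe set with exactly 1 symbol, and where a gene had several such sets, the one with the highest mean over the 6 arrays stood for it. The rule used no difference between the groups, but it was chosen with earlier results of these data known. It gave 50 of the 19938 genes that had such a probe set. Of these, 5 are known to be induced by interferon (Psmb8, Psmb9, Psmb10, Psme1 and Psme2) and were set against the other 45. All animals were males of 10 weeks on the BKS background, in a strain that carries the Leprdb allele of the leptin receptor gene, which the labels mark +/+ for wild type and -/- for diabetic mice. Whether the wild type animals carried a copy of Leprdb cannot be read from that notation. Mice without the working receptor become obese and develop type 2 diabetes. Cells were flushed from femur and tibia shafts and were not sorted, and no treatment was given. Values are log2 signals, and all differences are diabetic minus wild type. Median log2 signals per array were 7.67 to 7.73, and 3 arrays per group limit the precision. The labels do not say whether each array came from a separate animal, so p-values measure only the spread between these samples, which may be technical.

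The proteasome is the barrel-shaped protease that breaks down proteins tagged with ubiquitin. Its core is built of rings of alpha subunits, which form the gate, and rings of beta subunits, of which Psmb5, Psmb6 and Psmb7 carry the active sites in most tissues. Interferon induces the replacement subunits Psmb8 for Psmb5, Psmb9 for Psmb6 and Psmb10 for Psmb7, and the core that holds them is called the immunoproteasome. It yields more peptides of the kind that MHC class I molecules present, and blood cells carry it without infection as well. Psme1 and Psme2 encode the alpha and beta subunits of PA28, a cap that opens the core and is also induced by interferon. The other main cap, the regulatory particle of ATPases (Psmc genes) and non-ATPases (Psmd genes), binds and unfolds ubiquitin-tagged proteins.

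Start regions of induced genes and of constitutive counterparts are shown because both sets were compared in their response. Of the 50 members, 42 had a window in the RefSeq promoter table of GRCm38.p6, from 250 bases before to 50 bases after a gene start, with 46 windows in all. They were searched on both strands for an interferon-stimulated response element (GAAA, then NN, then GAAA), a gamma-activated site (TTCNNNGAA) and an antioxidant-type element, as bound by Nfe2l1 (TGACNNNGC). No match overlapped another in the members' windows. Psmb7 had no window, and the window of Psmb10 is not shown. The windows of Psmb8, Psmb9, Psme1 and Psme2, and of the counterparts Psmb5 and Psmb6, read as follows, with matches in capitals.
Psmb8 (chr17:34197945-34198244, plus strand): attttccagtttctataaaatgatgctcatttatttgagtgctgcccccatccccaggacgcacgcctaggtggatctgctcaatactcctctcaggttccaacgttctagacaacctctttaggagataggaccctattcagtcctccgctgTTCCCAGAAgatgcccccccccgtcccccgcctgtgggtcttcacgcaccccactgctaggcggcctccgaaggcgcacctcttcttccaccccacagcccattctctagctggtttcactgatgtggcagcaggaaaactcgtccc
Psmb9 (chr17:34187281-34187580, minus strand): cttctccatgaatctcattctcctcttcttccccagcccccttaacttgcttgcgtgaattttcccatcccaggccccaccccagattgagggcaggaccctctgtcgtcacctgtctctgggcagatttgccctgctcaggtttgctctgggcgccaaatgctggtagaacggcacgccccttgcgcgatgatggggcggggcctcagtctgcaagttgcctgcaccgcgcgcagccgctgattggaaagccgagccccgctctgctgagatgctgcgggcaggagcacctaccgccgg
Psme1 (chr14:55578244-55578543, plus strand): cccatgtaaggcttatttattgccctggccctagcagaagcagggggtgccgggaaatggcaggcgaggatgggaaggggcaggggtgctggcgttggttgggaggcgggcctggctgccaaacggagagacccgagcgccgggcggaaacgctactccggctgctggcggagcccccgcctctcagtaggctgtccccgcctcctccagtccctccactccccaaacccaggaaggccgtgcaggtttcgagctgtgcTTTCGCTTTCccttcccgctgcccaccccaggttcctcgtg
Psme2 (chr14:55591052-55591351, minus strand): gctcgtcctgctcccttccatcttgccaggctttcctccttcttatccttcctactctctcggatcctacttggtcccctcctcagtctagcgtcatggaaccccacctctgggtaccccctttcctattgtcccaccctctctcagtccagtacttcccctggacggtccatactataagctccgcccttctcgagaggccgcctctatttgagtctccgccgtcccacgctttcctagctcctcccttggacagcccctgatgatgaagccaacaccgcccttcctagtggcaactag
Psmb5 (chr14:54617946-54618245, minus strand): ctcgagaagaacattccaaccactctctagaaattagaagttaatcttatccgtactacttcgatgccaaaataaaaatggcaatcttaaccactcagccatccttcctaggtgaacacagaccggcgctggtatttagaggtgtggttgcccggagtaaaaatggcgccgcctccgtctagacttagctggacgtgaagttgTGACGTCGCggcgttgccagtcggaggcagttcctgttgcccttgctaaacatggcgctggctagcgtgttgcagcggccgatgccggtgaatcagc
Psmb6 (chr11:70525107-70525406, plus strand): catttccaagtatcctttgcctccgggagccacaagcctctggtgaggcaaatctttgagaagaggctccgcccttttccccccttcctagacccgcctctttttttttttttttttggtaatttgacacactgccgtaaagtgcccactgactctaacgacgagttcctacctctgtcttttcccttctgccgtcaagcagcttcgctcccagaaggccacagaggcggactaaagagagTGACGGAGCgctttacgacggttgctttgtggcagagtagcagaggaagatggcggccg
The capitals are a gamma-activated site in Psmb8 from base -97 to -89, an interferon-stimulated response element in Psme1 from base 10 to 19, and antioxidant-type elements in Psmb5 from base -47 to -39 and in Psmb6 from base -9 to -1. Positions count from the gene start, with base 1 as the first transcribed base and no base 0. The interferon-stimulated response element was found in 3.44%, the gamma-activated site in 8.30% and the antioxidant-type element in 12.4% of all 32851 windows. Counted by gene, 1079, 2582 and 3781 of 27025 genes held them in turn. Among the induced members, 1 of 5 genes held the first (Psme1), 1 of 5 the second (Psmb8) and 0 of 5 the last, and among the other 37 genes with a window the counts were 4, 2 and 6. The 4 others with the first were Psmd4, Psmd9, Psmb3 and Psmg4. The windows of Psmb9, Psmb10 and Psme2 matched none of the 3 motifs. The Psmb9 window shares 275 bases with that of Tap1, a gene read in the opposite direction from the same start region, so Psmb9 and the peptide transporter gene share sequence there.

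The first question was whether the induced subunits differed between diabetic and wild type marrow. All 5 were lower in diabetic marrow in the mean, with log2 changes from -0.26 to -0.11 and a median of -0.22, against a median of 0.0035 over all 19938 genes. In 4 of the 5, all but Psmb8, every diabetic value lay below every wild type value. Such a separation, in the lower direction, was seen in 4.81% of all genes. None of the 5 passed the threshold of 0.05 on p-values adjusted by the Benjamini-Hochberg method over the 11940 genes fitted in limma. In that fit 49 genes passed, or 0.41%, of which 39 were lower (0.327%) and 10 higher (0.0838%), and 0 of its 48 members did. The count over all genes was 13 when wild type replicate 2 was left out and 5, 3 and 12 when diabetic replicates 1, 2 and 3 were, so this background rests on few arrays. At an unadjusted p under 0.05, 4 members were lower and 0 were higher, where 3.17% of genes in the fit were lower and 3.99% higher. The 4 were Psme2, Psmb9, Psmb10 and Psme3ip1. With array weights, whose estimation did not converge and gave wild type replicate 2 a weight of 6.78 and wild type replicate 3 one of 0.283, Psme2, Psmb9 and Psmb10 passed, but so did 9.47% of all genes in the fit.

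Psmb8 (probe set 10444258), the induced replacement for the chymotrypsin-like subunit, had log2 signals of 9.85, 10.02 and 9.80 in wild type and 9.85, 9.73 and 9.71 in diabetic marrow. The groups overlapped, with diabetic replicate 1 between the wild type values. Its log2 change was -0.13 ± 0.08 (SE, n = 3 per group), with a 95% interval from -0.31 to 0.05, and it was -0.06 when wild type replicate 2 was left out.

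Psmb9 (probe set 10450145), which replaces the caspase-like subunit, had log2 signals of 9.85, 9.89 and 9.72 in wild type and 9.71, 9.59 and 9.48 in diabetic marrow. The groups were separate by a narrow margin, since wild type replicate 3 and diabetic replicate 1 lay next to each other. The log2 change was -0.22 ± 0.08 (SE, n = 3 per group), or 1.17-fold lower (limma, Benjamini-Hochberg adjusted p = 0.587).

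Psmb10 (probe set 10581378), which replaces the trypsin-like subunit, had log2 signals of 9.79, 9.91 and 9.92 in wild type and 9.68, 9.49 and 9.79 in diabetic marrow. Diabetic replicate 2 was the lowest, and diabetic replicate 3 lay just under wild type replicate 1. The log2 change of Psmb10 was -0.22 ± 0.09 (SE, n = 3 per group) and became -0.14 without diabetic replicate 2. Its Benjamini-Hochberg adjusted p in limma was 0.640.

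Psme2 (probe set 10420030), the beta subunit of PA28, showed the largest difference of all 50 members. Its log2 signals were 10.84, 10.80 and 10.73 in wild type and 10.55, 10.48 and 10.56 in diabetic marrow. The values within each group lay close together, and the gap between the groups was wider than the spread in either. The log2 change of Psme2 was -0.26 ± 0.06 (SE, n = 3 per group), or 1.19-fold lower, with a 95% interval from -0.40 to -0.12 (limma, Benjamini-Hochberg adjusted p = 0.267). Mouse has a near copy of this gene, Psme2b, so the probe set may read RNA of both, and a further probe set that the annotation gives to both symbols was left out by the rule.

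Psme1 (probe set 10415282), the alpha subunit of PA28, had log2 signals of 10.79, 10.86 and 10.90 in wild type and 10.78, 10.69 and 10.75 in diabetic marrow. The groups were separate, but wild type replicate 1 and diabetic replicate 1 almost met. The log2 change was -0.11 ± 0.06 (SE, n = 3 per group) (limma, Benjamini-Hochberg adjusted p = 0.830).

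**Figure D1:**
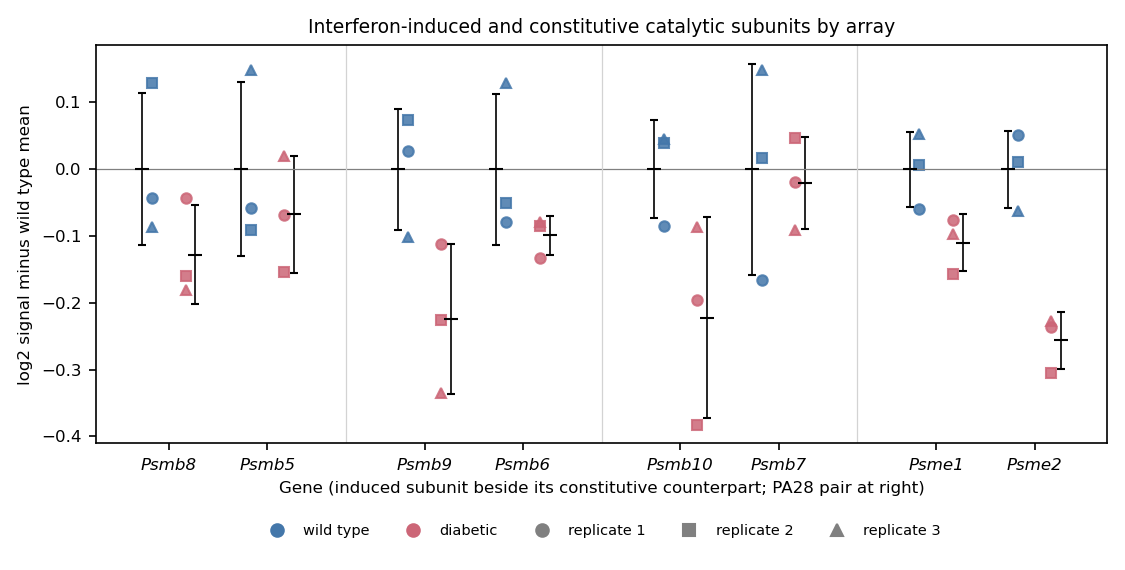
Log2 signal of 8 genes on each array, minus the gene's wild type mean (vertical axis, log2 units), for the 3 induced catalytic subunits beside their constitutive counterparts and for the PA28 pair. Points are arrays, bars the mean ± SD of 3 arrays. The diabetic values of Psmb9, Psmb10, Psme1 and Psme2 lie below all wild type values, and those of Psmb8, Psmb5, Psmb6 and Psmb7 overlap with them.

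The constitutive catalytic subunits gave smaller differences, and their groups overlapped. Psmb5 (probe set 10419810) had log2 signals of 12.21, 12.18 and 12.42 in wild type and 12.20, 12.11 and 12.29 in diabetic marrow, a change of -0.07 ± 0.08 (SE, n = 3 per group). Psmb6 (probe set 10377851) had 9.87, 9.90 and 10.08 against 9.82, 9.87 and 9.87, a change of -0.10 ± 0.07. Psmb7 (probe set 10482229) had 9.97, 10.15 and 10.28 against 10.11, 10.18 and 10.04, a change of -0.02 ± 0.09. All 3 were highest on wild type replicate 3.

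Whether an induced subunit differed more than the one it replaces was tested within arrays, as the log2 signal of the first minus that of the second. Probe sets differ in how strongly they bind, so such a difference is compared between arrays and not read as a ratio of transcripts. For Psmb8 minus Psmb5, the values were -2.36, -2.16 and -2.61 in wild type and -2.35, -2.38 and -2.58 in diabetic marrow. The change was -0.06 ± 0.15 (SE, n = 3 per group; two-sided exact permutation p = 0.9). It turned to 0.05 without wild type replicate 2 and to 0.0099 without diabetic replicate 3, and was -0.18 when wild type replicate 3 was left out and -0.10 when diabetic replicate 1 was. For Psmb9 minus Psmb6, the values were -0.027, -0.0068 and -0.36 in wild type and -0.11, -0.27 and -0.39 in diabetic marrow. The change was -0.13 ± 0.14 (exact permutation p = 0.4). It ran from -0.24, with wild type replicate 3 left out, to -0.07, -0.06 and -0.06 with wild type replicate 1, wild type replicate 2 or diabetic replicate 3 left out, and was -0.20 with diabetic replicate 1 left out. For Psmb10 minus Psmb7, the values were -0.18, -0.24 and -0.36 in wild type and -0.44, -0.69 and -0.25 in diabetic marrow, a change of -0.20 ± 0.14 (exact permutation p = 0.2). Leaving out diabetic replicate 2 gave -0.09, and leaving out diabetic replicate 3 gave -0.30. In each of the 3 pairs the groups overlapped. The p-values adjusted over the 3 pairs were 0.9, 0.6 and 0.6 (exact permutation tests, Benjamini-Hochberg), and the smallest p that 3 arrays against 3 allow is 0.1. The test could therefore not pass 0.05 for any pair, and it does not decide whether an induced subunit differed more than its counterpart. The errors leave room for such a difference in either direction.

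The other 45 members had a median log2 change of -0.033, with 33 lower and 12 higher in the mean, where 48.3% of all genes were lower. Their log2 changes ran from -0.20 for Psme3ip1 to 0.16 for Psmd4, and none passed the adjusted threshold. Of the 45, 1 was lower without overlap between the groups, Psme3ip1, and 0 were higher, against 4.81% and 6.01% of all genes. The 95% intervals of the 45 ran from -0.40 (Psmf1) to 0.42 (Psmd4), and 36 of them lay inside -0.3 to 0.3, so smaller differences in either direction are not settled by these arrays. The median of the 45 turned to 0.045 when wild type replicate 3 was left out and to 0.0061 when diabetic replicate 3 was.

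**Figure D2:**
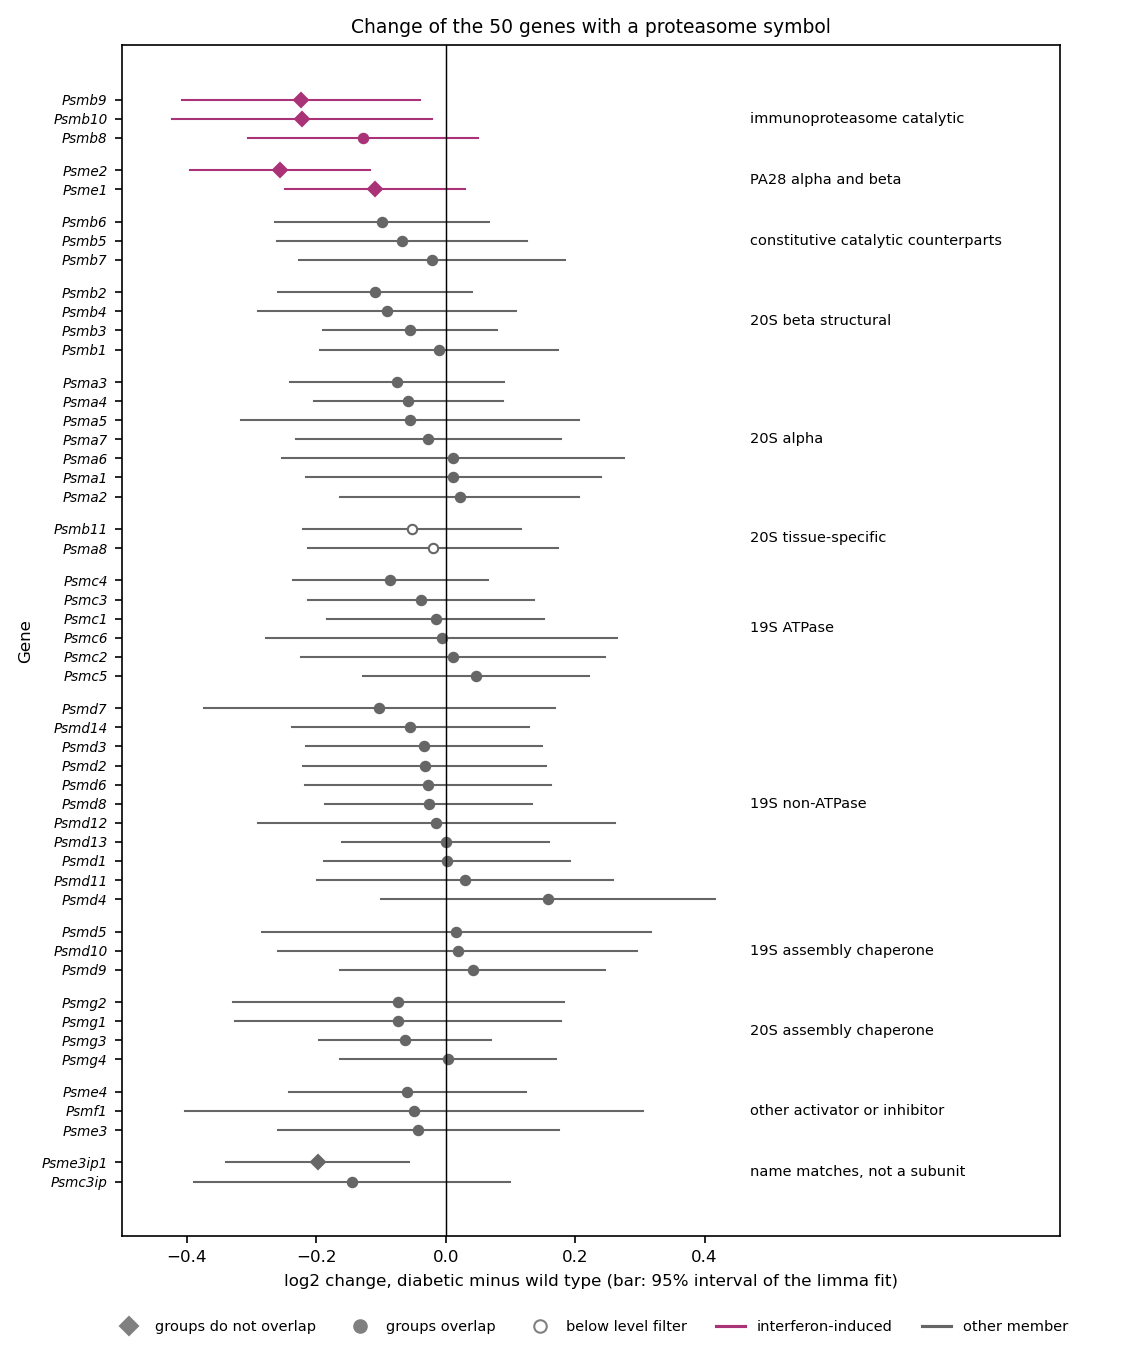
Log2 change, diabetic minus wild type (horizontal axis), of the 50 genes, ordered by role, with 95% intervals of the limma fit as bars. Diamonds mark genes whose groups do not overlap and open circles genes below the level filter. The induced members lie between -0.26 and -0.11, and the 45 others between -0.20 and 0.16.

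Among the alpha subunits, which form the outer rings of the core and its gate, 4 of 7 were lower and 3 higher, all with overlapping groups. Psma3 was at -0.08 ± 0.07 and Psma2 at 0.02 ± 0.08 (SE, n = 3 per group). The 3 probe sets of Psma3 gave -0.07, -0.10 and -0.08. The 2 of Psma5 gave 0.03 and -0.05, and so did not share a sign. The beta subunits without an active site, Psmb1, Psmb2, Psmb3 and Psmb4, were all lower in the mean, from -0.11 ± 0.06 for Psmb2 to -0.01 ± 0.08 for Psmb1. The log2 signals of Psmb2 were 11.68, 11.64 and 11.77 in wild type and 11.64, 11.60 and 11.52 in diabetic marrow, and the groups overlapped. The testis subunit Psma8 and the thymus subunit Psmb11 had mean log2 signals of 6.44 and 6.78, the only members below the level filter of 7.52, and their changes were -0.02 and -0.05.

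In the regulatory particle, the 6 ATPases that unfold substrates ran from -0.09 ± 0.06 for Psmc4 to 0.05 ± 0.08 for Psmc5 (SE, n = 3 per group), with 4 lower and 2 higher. Of the 11 non-ATPases, 8 were lower and 3 higher, and their median was -0.027. Psmd7 was at -0.10 ± 0.12 and Psmd4, a receptor for ubiquitin chains, was at 0.16 ± 0.11, the highest of all members. The log2 signals of Psmd4 were 9.28, 9.32 and 9.64 in wild type and 9.54, 9.72 and 9.46 in diabetic marrow. The groups overlapped, since wild type replicate 3 lay among the diabetic values. Psmd14, which cuts ubiquitin chains off substrates, was at -0.05 ± 0.08.

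No assembly chaperone passed the threshold, and all had overlapping groups. The 3 that build the regulatory particle, Psmd5, Psmd9 and Psmd10, were at 0.02 ± 0.13, 0.04 ± 0.09 and 0.02 ± 0.12 (SE, n = 3 per group). The 4 that build the core, Psmg1 to Psmg4, ran from -0.07 ± 0.11 for Psmg2 to 0.0033 ± 0.07 for Psmg4, with Psmg3 at -0.06 ± 0.06. Psme3, the nuclear PA28 gamma, which is not induced by interferon, was at -0.04 ± 0.09, Psme4, the PA200 cap, at -0.06 ± 0.08 and Psmf1, the regulator PI31, at -0.05 ± 0.15.

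Both remaining members carry a proteasome symbol through a binding partner and are not subunits. Psme3ip1, which binds PA28 gamma, had log2 signals of 9.84, 9.80 and 9.92 in wild type and 9.67, 9.61 and 9.69 in diabetic marrow. Its groups were separate, and the log2 change of Psme3ip1 was -0.20 ± 0.06 (SE, n = 3 per group; limma, Benjamini-Hochberg adjusted p = 0.529). Psmc3ip, a factor of meiotic recombination, was at -0.15 ± 0.11, and its groups overlapped.

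The arrays differed from one another in the level of the 45 other members whatever the group. Their mean log2 signal was 9.93, 9.97 and 10.15 in wild type and 9.99, 10.04 and 9.93 in diabetic marrow. Wild type replicate 3 was the highest array for 33 of the 45, where it was the highest for 19.6% of all genes. Wild type replicate 1 was the lowest for 18 and diabetic replicate 3 for 15. The erythroid marker list had means of 11.90, 12.10 and 12.46 in wild type and 12.09, 12.43 and 12.14 in diabetic marrow, so that wild type replicate 3 was its highest array and wild type replicate 1 its lowest. The B cell precursor list had means of 10.76, 10.50 and 9.68 in wild type and 10.00, 10.10 and 9.76 in diabetic marrow, with wild type replicate 3 the lowest. The part of either list in the spread of the proteasome genes was not tested.

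The 5 induced members ordered the arrays differently, which was not tested. Their mean log2 signal was 10.22, 10.30 and 10.21 in wild type and 10.11, 10.00 and 10.06 in diabetic marrow, with no overlap and a difference of -0.19. Wild type replicate 3 was the highest array for 2 of the 5. The lowest array was diabetic replicate 2 for 3 of the 5 and diabetic replicate 3 for 2, again with no share over all genes. Taken against the mean of the 45 on the same array, the values were 0.29, 0.33 and 0.065 in wild type and 0.13, -0.037 and 0.13 in diabetic marrow. Here the groups overlapped, because wild type replicate 3 lay below diabetic replicates 1 and 3. The wild type mean of this difference was 0.23 ± 0.14 and the diabetic mean 0.07 ± 0.10 (SD over 3 arrays), a change of -0.15. Leaving out wild type replicate 3 gave -0.24, and leaving out diabetic replicate 2 gave -0.10. The mean of the induced members was thus separate between the groups, with Psmb8 alone overlapping, while their mean relative to the other 45 was not.

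**Figure D3:**
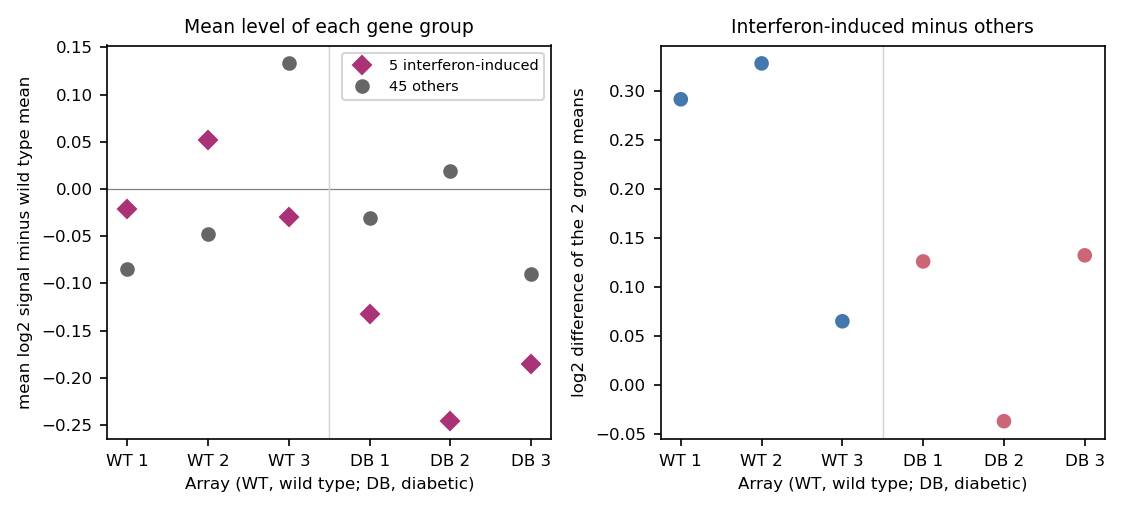
Left, mean log2 signal of the 5 induced members and of the 45 others on each array, minus the mean of the wild type arrays (vertical axis). Right, the difference of both means on each array. The 45 others are highest on wild type replicate 3, and in the right panel that array, at 0.065, lies among the diabetic arrays.

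Genes around the induced subunits were then described from lists of related genes, also chosen with earlier results of these data known. In the supply of peptides to MHC class I, 8 of 9 genes were lower in the mean, against 48.3% of all genes, and 4 of them were lower without overlap, against 4.81%. Their median was -0.13, and 0 passed the adjusted threshold. Tap1, a subunit of the peptide transporter and the neighbour of Psmb9, had log2 signals of 10.58, 10.87 and 10.50 in wild type and 10.37, 10.36 and 10.20 in diabetic marrow. The groups were separate, and the change was -0.34 ± 0.10 (SE, n = 3 per group). Its partner Tap2 was at 0.04 ± 0.06 with overlapping groups. Tapbp, Calr and B2m, without overlap, were at -0.20 ± 0.06, -0.20 ± 0.06 and -0.16 ± 0.07.

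Of 13 genes that transmit the interferon signal or drive induced proteasome genes, 2 passed, both lower. Irf9, which binds DNA in the type I interferon complex, had log2 signals of 10.35, 10.68 and 10.52 in wild type and 9.66, 9.77 and 9.78 in diabetic marrow. The gap between the groups was wider than the range within either, and Irf9 fell by 0.78 ± 0.09 in log2 units (SE over 3 arrays per group; limma, Benjamini-Hochberg adjusted p = 0.0194). Its partner Stat2 had log2 signals of 9.89, 10.06 and 9.87 in wild type and 9.41, 9.41 and 9.52 in diabetic marrow. These groups were also separate, and Stat2 fell by 0.49 ± 0.07 (limma, Benjamini-Hochberg adjusted p = 0.0406). Neither call held on fewer arrays in most cases. With 1 array left out, the log2 changes ran from -0.86 to -0.70 for Irf9 and from -0.53 to -0.43 for Stat2. The adjusted p of Irf9 in limma was 0.0752 without wild type replicate 2 and 0.142, 0.108 and 0.0865 without diabetic replicates 1, 2 and 3, and it passed without wild type replicates 1 and 3. That of Stat2 in limma was 0.0699 and 0.193 without wild type replicates 1 and 2 and 0.260, 0.169 and 0.113 without diabetic replicates 1, 2 and 3, and it passed without wild type replicate 3. Centring each array on its median gave Stat2 0.0558 and Irf9 0.0353 in limma after adjustment. With the replicate number as a block, the adjusted p in limma was 0.0600 for Irf9 and 0.172 for Stat2. Whether these numbers pair the arrays could not be told. Irf1, which switches on Psmb8 and Psmb9 among others, was at -0.27 ± 0.11, and Nlrc5, the activator of MHC class I genes, at -0.27 ± 0.11, both with overlapping groups. Jak2 and Ifngr1, of the interferon gamma receptor complex, were at 0.17 ± 0.06 and 0.21 ± 0.07, higher without overlap and short of the threshold. The list had 6 genes lower and 7 higher, with a median of 0.0029.

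**Figure D4:**
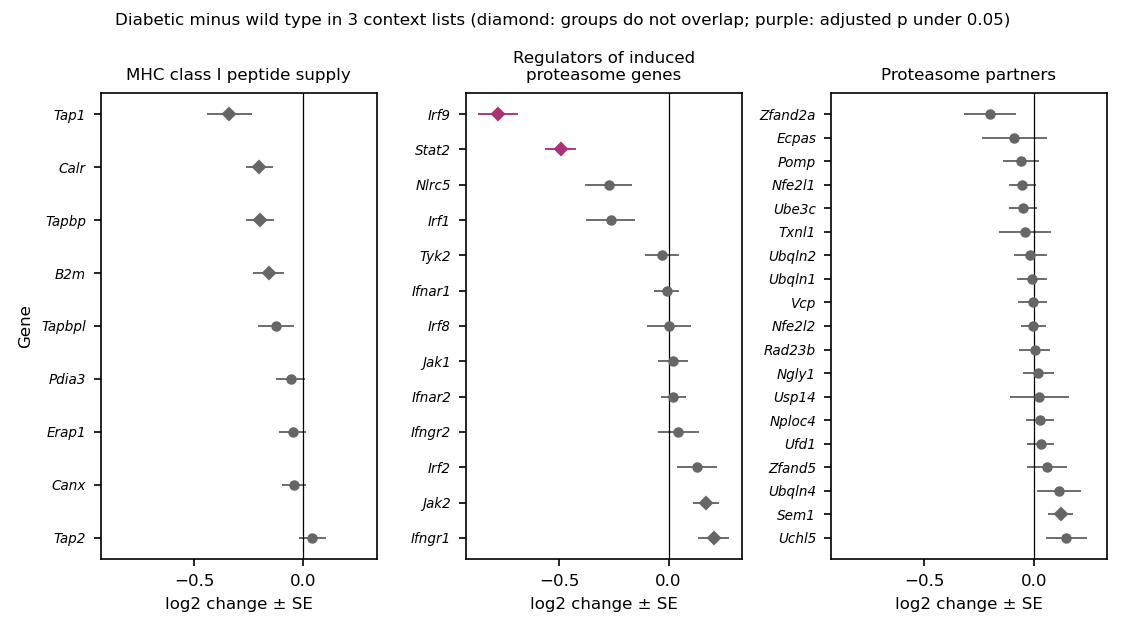
Log2 change ± SE, diabetic minus wild type (horizontal axis), of genes in 3 lists, one per panel. Diamonds mark genes whose groups do not overlap and purple an adjusted p under 0.05. Irf9 and Stat2 lie at -0.78 and -0.49, and the partners of the proteasome lie between -0.20 and 0.15.

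Partners of the proteasome outside the symbol rule had 10 of 19 genes lower and 9 higher, a median of -0.0011 and 0 past the threshold. The largest differences were those of Zfand2a, at -0.20 ± 0.12, and Uchl5, a ubiquitin protease of the regulatory particle, at 0.15 ± 0.09 (SE, n = 3 per group), both with overlapping groups. Sem1, a small subunit of the regulatory particle, was at 0.12 ± 0.06, higher without overlap. Pomp, the chaperone of new cores, was at -0.06 ± 0.08, and Nfe2l1, the factor that raises proteasome genes when the protease is blocked, was at -0.05 ± 0.06. Of the ubiquitin and activating enzyme list only Uba6 had a probe set with 1 symbol, and it was at -0.06 ± 0.06.

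Of the cell type lists, those of monocytes and macrophages, dendritic cells and plasma cells had lower means on every diabetic array than on any wild type array. All 11 B cell precursor markers were also lower in the mean, with a median of -0.41, but each had overlapping groups. In these mixed samples fewer cells of a type and less RNA per cell cannot be told apart. Over all genes 4.81% were lower and 6.01% higher without overlap. Of 11 monocyte and macrophage markers, 9 were lower, 7 without overlap, and the list mean ran from 10.19 to 10.36 in wild type and from 9.96 to 10.10 in diabetic marrow. C1qb, a complement chain of resident macrophages, was at -0.62 ± 0.12 and Axl, a receptor for dying cells, at -0.53 ± 0.09 (SE, n = 3 per group). The 2 higher markers of that list, Adgre1 and Ccr2, were at 0.27 ± 0.14 and 0.05 ± 0.10. Csf1r was at -0.0087 ± 0.07, and the groups of these last 3 genes overlapped. Of 10 dendritic cell markers, 6 were lower, 4 without overlap, and 4 were higher, of which Flt3, a growth factor receptor, was at 0.23 ± 0.06 without overlap. The mean of this list ran from 9.05 to 9.10 in wild type and from 8.93 to 8.97 in diabetic marrow. All 9 plasma cell markers were lower, 4 without overlap, with list means from 9.17 to 9.44 and from 8.92 to 8.96. No marker of these lists in the limma fit passed the adjusted threshold. Below the level filter and outside that fit were Tnfrsf17 and Prdm1 (plasma cell), Xcr1 (dendritic cell), and Rag2 and Vpreb1 (B cell precursor). Of these, Tnfrsf17 and Xcr1 are counted above as lower without overlap. The part of these lists in the difference of the induced subunits was not tested. The list means of neutrophil, T and NK cell and stromal markers overlapped between the groups, at 13.09 to 13.19 and 13.07 to 13.26, 8.49 to 8.82 and 8.45 to 8.74, and 7.54 to 7.56 and 7.44 to 7.54.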

How the data were processed

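Per the labels' protocols, cDNA amplified from bone marrow RNA was biotinylated and read on Affymetrix arrays. The authors deposited log2 signals from RMA, run in Expression Console according to the submitters' processing notes. RMA equalises arrays, so a shift of most genes together cannot be seen. Software version and genome build: not given in the sources used here.

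Of 35556 probe sets, 21789 had 1 symbol, 1621 several and 12146 none. All 50 members (56 sets) matched RefSeq of GRCm38.p6. Genes with a mean log2 signal at or above 7.52, the 40th percentile of single-symbol sets, entered lmFit and eBayes (limma 3.58.1, R 4.3.3) without covariates, with Benjamini-Hochberg adjustment. Members below it were fitted with all 19938 genes. Medians and overlap counts used all members. Subunit pairs were compared by two-sided exact permutation. The fit was tested on simulated data whose planted changes were larger than that of any member. That test does not cover changes of the members' size. Figures used matplotlib 3.10.9.

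The members and lists were chosen with earlier results of these data known. Named were the induced members, their counterparts, members without overlap, the extremes of each role and, in the 4 lists of related genes, those past the threshold or else the largest 2 changes. Other names, cell type markers included, were chosen after their values were seen. A strain allele in the labels is not reported here. Alternatives were other level filters, quantile normalization, median centring, mean probe sets, trend and robust eBayes, array weights, a replicate block and leaving out each array.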

Additional observations from a re-analysis of the deposited data

How the results depend on the processing

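Psmb8, Psmb9, Psmb10, Psme1 and Psme2 stayed lower under all 15 alternatives run for each. Their log2 changes were -0.19 to -0.06, -0.28 to -0.17, -0.29 to -0.14, -0.14 to -0.08 and -0.29 to -0.23. Most alternatives could not have reversed a sign. The level filters, mean probe sets, trend and robust eBayes and the block left these log2 changes as they were. For the genes without overlap, all but Psmb8, leaving out or weighting arrays could not reverse the sign either. Only quantile normalization and median centring could have done so for every gene. None of these genes passed an adjusted p of 0.05 in limma under 14 of the 15 alternatives. Array weights, whose estimation did not converge, called 1131 genes in all, 3 of them members: Psmb9 at -0.23, Psmb10 at -0.23 and Psme2 at -0.25, with adjusted p of 0.0360, 0.0305 and 0.00639 in limma. The other 14 called 0 members, with 2 to 4 at an unadjusted p under 0.05 in limma. Array weights also gave a median of -0.23 for the induced members and 0.011 for the others, and changes of -0.20, -0.16 and -0.20 for the 3 pairs. The count of 49 genes was 3 to 68 when 1 array was left out: 13 without wild type replicate 2, and 5, 3 and 12 without diabetic replicates 1, 2 and 3. With the replicate number as a block it was 2, with 0 members. Whether the labels' numbers pair the arrays could not be told. The deviations of same-numbered arrays correlated at 0.33, -0.044 and -0.054, and not every array correlated best with its own number. With 3 arrays per group, such correlations cannot settle the question. With the block the adjusted p in limma was 0.0600 for Irf9 and 0.172 for Stat2, and with median centring it was 0.0558 for Stat2. The block changed no call on a member. A cut taken over genes rather than probe sets, added after seeing the data, left 0 members called. When 1 array was left out, the median of the induced members ran from -0.24 to -0.14 (without diabetic replicate 2), that of the others from -0.07 to 0.05, the change of the induced minus the other members, a measure added after seeing the data, from -0.24 to -0.10, and the change in Psmb8 minus Psmb5 from -0.18 to 0.050, the highest without wild type replicate 2, with 0.0099 without diabetic replicate 3. The cause of these shifts was not tested. With 3 arrays per group, no permutation p for the pairs can go below 0.1.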
